A study of Mus musculus with 18 samples.

Results

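The circular RNAs described here come from 8 mouse genes that act in DNA replication, DNA repair or mitosis. Circular RNAs (circRNAs) are closed molecules made when the splice donor at the end of an exon is joined back to an acceptor upstream. Each is recognised in sequencing by reads that cross this back-splice junction. The host genes are Prim2, Brca2, Fancl, Uimc1, Ascc3, Pms1, Bub1b and Cdc14b. A circRNA was assigned to them when its ends lay at exon ends of, or inside, the gene on GRCm38. Each host had 1 such circRNA, so 8 of the 474 circRNAs and 8 of the 415 host genes of the table were members. The members were picked by host function among circRNAs whose measured levels put them in the table, and with earlier results of these comparisons known. Their differences between groups are therefore given as a description, and p values only to place each circRNA among all 474. The table lists circRNAs with reads in 9 libraries or more. Bub1b, with reads in 9, and Prim2, with reads in 10, lay just inside that threshold, and circRNAs below it were not analysed here.

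Liver RNA came from 18 male C57BL/6 mice, 6 per group and 1 library per mouse, bought at 6 weeks of age and treated for 12 weeks. The Control group had corn oil injected into the peritoneum and double distilled water given orally each day. The Cirrhosis group had 10% carbon tetrachloride (CCl4), a liver toxin, in the corn oil and the same daily water. The Cirrhosis-PTH group had the same 10% CCl4 and, by mouth each day, 0.25 mg/g of PTH, which stands for Pien Tze Huang, a Chinese patent medicine. Injections were of 10 µl/g and were given 2 times a week in every group, so all mice, controls included, received corn oil. The labels describe 45 treated mice, 15 per group, without saying how the 18 were chosen. Libraries are called here by the numbers in their titles, which run 1, 2, 3, 6, 7 and 8 in Control and 1 to 6 in the other groups.

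As background, a cell that divides copies its DNA from RNA primers, mends breaks, crosslinks and mismatches, and then parts its chromosomes under the control of a checkpoint. Hepatocytes of a healthy adult liver rarely divide, and toxin injury such as CCl4 drives them and other liver cells into the cycle. A circRNA level reports back-splicing and stability of the circle, and need not follow the mRNA of its host.

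The back-splice junctions are shown first, because they are the only part of each circle that the reads identify. In each line the lower-case letters are the last 20 bases of the donor exon and the capitals the first 20 bases of the acceptor exon, 5′ to 3′ on the strand of the host, from GENCODE M21 transcripts of GRCm38.
Prim2: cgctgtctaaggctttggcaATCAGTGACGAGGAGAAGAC
Brca2: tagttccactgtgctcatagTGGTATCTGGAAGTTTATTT
Fancl: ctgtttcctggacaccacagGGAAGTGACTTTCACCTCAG
Uimc1: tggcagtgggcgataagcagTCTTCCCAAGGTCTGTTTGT
Ascc3: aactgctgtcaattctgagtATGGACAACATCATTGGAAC
Pms1: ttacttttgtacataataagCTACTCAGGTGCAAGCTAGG
Bub1b: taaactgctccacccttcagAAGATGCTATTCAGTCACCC
Cdc14b: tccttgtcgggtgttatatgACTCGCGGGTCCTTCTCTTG
Searched in all GENCODE M21 transcripts on both strands, 7 of the 8 junctions had neither side in a transcript of another gene. The donor side of Pms1 also occurred in 1 other gene, the antisense RNA gene Gm15457, and its acceptor side in none. Other annotated genes lay within the spans of 2 circles, on the same strand: the processed pseudogene Gm12713 inside Fancl and the processed pseudogene Gm18120 inside Ascc3.

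The primase circle of Prim2 and the recombination gene circle of Brca2 are short enough to be read whole, and are shown because both hold only 2 exons within the coding sequence. The first exon is in lower case and the second in capitals, and the last capital is joined to the first base. All exons annotated between the ends are taken to be in the circle, which the reads across the junction do not show.
Prim2: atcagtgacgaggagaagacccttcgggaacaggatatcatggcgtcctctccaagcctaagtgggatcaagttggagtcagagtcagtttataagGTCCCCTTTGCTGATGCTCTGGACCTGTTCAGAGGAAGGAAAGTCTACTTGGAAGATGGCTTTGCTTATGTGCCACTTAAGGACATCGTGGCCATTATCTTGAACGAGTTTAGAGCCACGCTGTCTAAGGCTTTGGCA
Brca2: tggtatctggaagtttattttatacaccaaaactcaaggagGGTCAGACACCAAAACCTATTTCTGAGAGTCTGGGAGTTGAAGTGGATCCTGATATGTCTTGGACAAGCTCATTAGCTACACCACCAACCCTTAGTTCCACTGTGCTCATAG

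By position, Prim2 (chr1:33628395-33630433, minus strand) held exons 6 to 7 of 14 in 234 bases, which are codons 154 to 231 of 505. Brca2 (chr5:150532055-150532402, plus strand) held exons 6 to 7 of 27 in 153 bases, codons 152 to 203 of 3329. Fancl (chr11:26397746-26434500, plus strand) held exons 2 to 7 of 14 in 444 bases, codons 33 to 180 of 375. Uimc1 (chr13:55055975-55069807, minus strand) held exons 7 to 9 of 15 in 267 bases, codons 401 to 489 of 727. These 4 circles lie wholly in coding sequence. Ascc3 (chr10:50748806-50767507, plus strand) held exons 31 to 36 of 42 in 765 bases, codons 1597 to 1851 of 2198, also coding. Bub1b (chr2:118631759-118635277, plus strand) held coding exons 17 to 19 of 23 in 392 bases, codons 704 to 834 of 1052. Pms1 (chr1:53256629-53282092, minus strand) held exons 2 to 5 of 13 in 602 bases, of which 20 are 5′ UTR, and runs to codon 194 of 917, start codon included. Cdc14b (chr13:64243634-64248499, minus strand) differed from the others in that 1 of its ends is annotated. Its donor is the end of exon 4 of 14 in the transcript Cdc14b-202, while its other end lies 143 bases inside exon 1, next to an AG, the letters of a splice acceptor. Its 355 bases include 46 of 5′ UTR and run to codon 103 of 448.

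The circles differed in size and in the introns beside them. Ascc3 was longer than 97.0% and Brca2 than 2.1% of the 435 circRNAs with both ends at exon ends of 1 transcript. The median length of the 435 was 306 bases. The intron downstream of Prim2, of 95031 bases, was longer than 98.8% of the 434 downstream introns of these circRNAs. The introns on the upstream side of Brca2 and Bub1b, of 321 and 680 bases, were longer than only 1.1% and 3.4%, where the median was 11695 bases. All 8 circles held several exons. Among the 435, 361 circles were wholly coding, and 130 of these (36.0%) had a length that is a multiple of 3. Of the 6 wholly coding members 5 had such a length. These 5 had no stop codon in the frame of the host over the 4 turns read. Bub1b was the exception, with a stop 16 residues past the junction. These are properties of the letters, and translation was not measured.

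**Figure D1:**
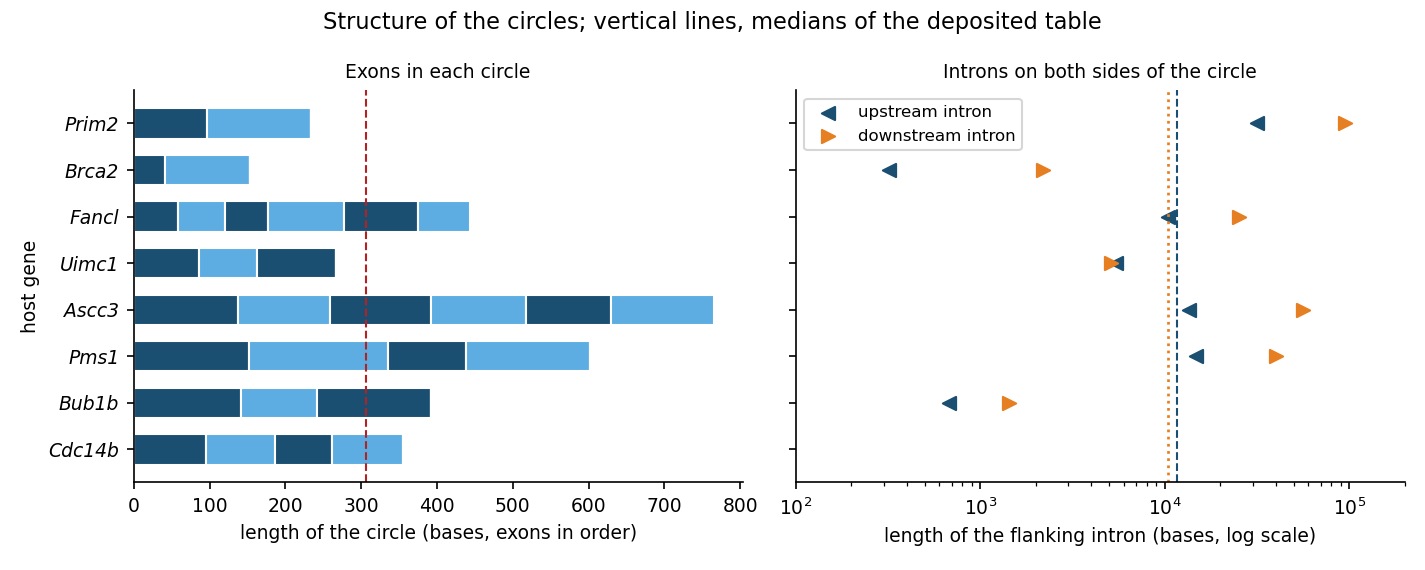
Exons and flanking introns of the 8 circles. Left, spliced length in bases, with exons in order in alternating shades and the table median of 306 bases as a dashed line; right, length in bases of the introns upstream and downstream on a log axis, with the table medians as vertical lines. Ascc3 is the longest circle at 765 bases, Brca2 the shortest at 153, and Cdc14b has no intron marked because 1 of its ends lies inside an exon.

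The depth behind these values was low. The CPM resolved into 38784 whole back-splice reads, 794 to 1923 per library in Control, 1595 to 2384 in Cirrhosis and 1293 to 8431 in Cirrhosis-PTH, from totals of 2706146 to 29164326. A single read was worth 0.0343 to 0.370 CPM. The 8 members had 525 of the reads (1.35%), with a median of 2 reads per value, and 46 of their 144 values (31.9%) were 0, against 31.0% in the table. Ranked by mean CPM among 474 they ran from 71 (Pms1) to 456 (Bub1b). A circle has 1 back-splice junction whatever its length, so these levels are not scaled by length. Reads carried no molecular identifiers, so floors cover counting error only. Of 23 group means above 0 among the members, 11 changed more than 1.5 times when the highest library was left out. Cirrhosis-PTH 6 alone held 47.3% of the reads of all circRNAs in its group, and larger shares for Brca2 (30 of 32), Bub1b (10 of 11) and Fancl (31 of 43). Cirrhosis 6 stood apart from the rest of its group, with 223 detected circRNAs, the fewest of all libraries. The chi-square per degree of freedom was 4.77 to 5.85 in its pairs and 2.90 to 3.91 in the other Cirrhosis pairs.

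**Figure D2:**
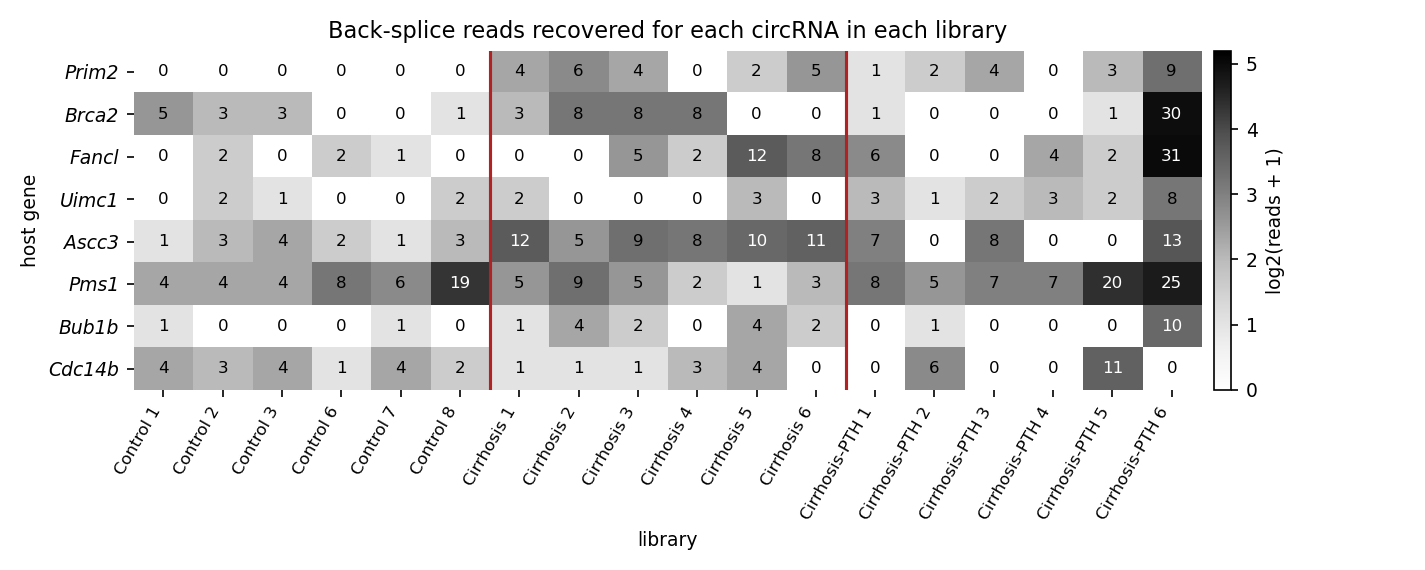
Whole back-splice reads recovered for each host gene (vertical axis) in each of the 18 libraries (horizontal axis), printed in the cells and shaded by log2(reads + 1); vertical lines part the 3 groups. Prim2 is at 0 in all 6 Control libraries, and the 30 Brca2 and 31 Fancl reads of Cirrhosis-PTH 6 are the highest counts.

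Cirrhosis was set against Control to ask what CCl4 changed. The circRNAs of Prim2 and Ascc3 had the largest fitted differences among the members, and both stood higher in Cirrhosis. Prim2, from the primase gene, was at 0 CPM in all Control libraries and at a mean of 0.496 ± 0.305 CPM in Cirrhosis (SD, n = 6). Ascc3, from a repair helicase gene, stood at 0.434 ± 0.278 and 1.52 ± 0.572 CPM. The circRNA of the mismatch repair gene Pms1 stood lower, at 1.17 ± 0.459 CPM in Control and 0.582 ± 0.253 in Cirrhosis. Counted by fitted log2 differences, 5 of the 8 stood higher and 3 lower, with a median of 0.71, beside 56.1% higher and a median of 0.12 over all 474. In limma 0 of the 8 passed an adjusted p of 0.05, and 0% of the 474 did. On the recovered reads edgeR called 0% and DESeq2 0.211% of the 474, none of them a member. Under an unadjusted 0.05 there were 2 members higher (Prim2 and Ascc3) and 0 lower, where 8.86% of all circRNAs were called higher and 3.38% lower. With each library centred on the median of the 26 circRNAs with reads in all 18, the median over all circRNAs moved from 0.12 to -0.46 with 28.9% higher, and 4 of the 8 members stood higher. The unadjusted counts followed the method: with median centring 1 member stood higher (Prim2) and 2 lower (Pms1 and Cdc14b), with 10 circRNAs of the 474 higher and 68 lower. In edgeR there was 1 member higher (Prim2) and 0 lower, with 16 circRNAs of the 474 higher and 14 lower. In DESeq2 1 member was higher (Prim2) and 1 lower (Pms1), with 16 circRNAs of the 474 higher and 22 lower. Ascc3 was under 0.05 in neither.

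Cirrhosis-PTH was set against Cirrhosis to ask what the medicine changed under CCl4. The Ascc3 circRNA stood lower, at 0.450 ± 0.556 CPM in Cirrhosis-PTH, and that of Pms1 higher, at 1.07 ± 0.391 CPM. In all, 2 members stood higher and 6 lower, with a median log2 difference of -0.53, beside 42.0% higher and a median of -0.17 over all circRNAs. No member and 0% of the 474 passed limma's adjusted 0.05, while edgeR and DESeq2 each called 0.211%, no member among them. At an unadjusted 0.05 the count was 1 member lower (Ascc3) and 0 higher, where 5.49% of all were lower and 1.69% higher. With median centring 3 members and 63.9% of all circRNAs stood higher, and under an unadjusted 0.05 there were 2 members higher (Pms1 and Uimc1) and 1 lower (Ascc3), with 52 circRNAs of the 474 higher and 8 lower. In edgeR 0 members were under an unadjusted 0.05, with 17 circRNAs higher and 8 lower, and in DESeq2 Ascc3 alone was, with 16 higher and 21 lower. This comparison and the one before it share the 6 Cirrhosis libraries, so each Cirrhosis value enters both, with opposite signs.

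Cirrhosis-PTH was also set against Control, for what remained under CCl4 and the medicine together. Prim2 again stood higher, at 0.285 ± 0.192 CPM against 0. The members were split, 4 higher and 4 lower, with a median log2 difference of 0.00, beside 49.8% higher over all circRNAs. Limma called 0 members and 0% of all circRNAs at an adjusted 0.05, as did edgeR and DESeq2. At an unadjusted 0.05 it called 1 member higher (Prim2) and 0 lower, where 1.48% of all were higher and 3.8% lower. Prim2 was the only member so called in edgeR too (9 circRNAs of the 474 higher, 10 lower). The same held in DESeq2 (3 and 25) and with median centring (6 and 22). With a pseudocount of 0.571 or 1 CPM 0 members were called, and in each 5 circRNAs were higher and 18 lower. Over the 24 member differences of the 3 comparisons the smallest adjusted p in limma was 0.222, and in none of the 24 were the groups free of overlap. Over all 474, in Cirrhosis against Control 0.211% stood wholly above and 0% wholly below. In Cirrhosis-PTH against Cirrhosis 0% stood wholly above and 0.422% wholly below, and against Control the shares were also 0% and 0.422%.

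**Figure D3:**
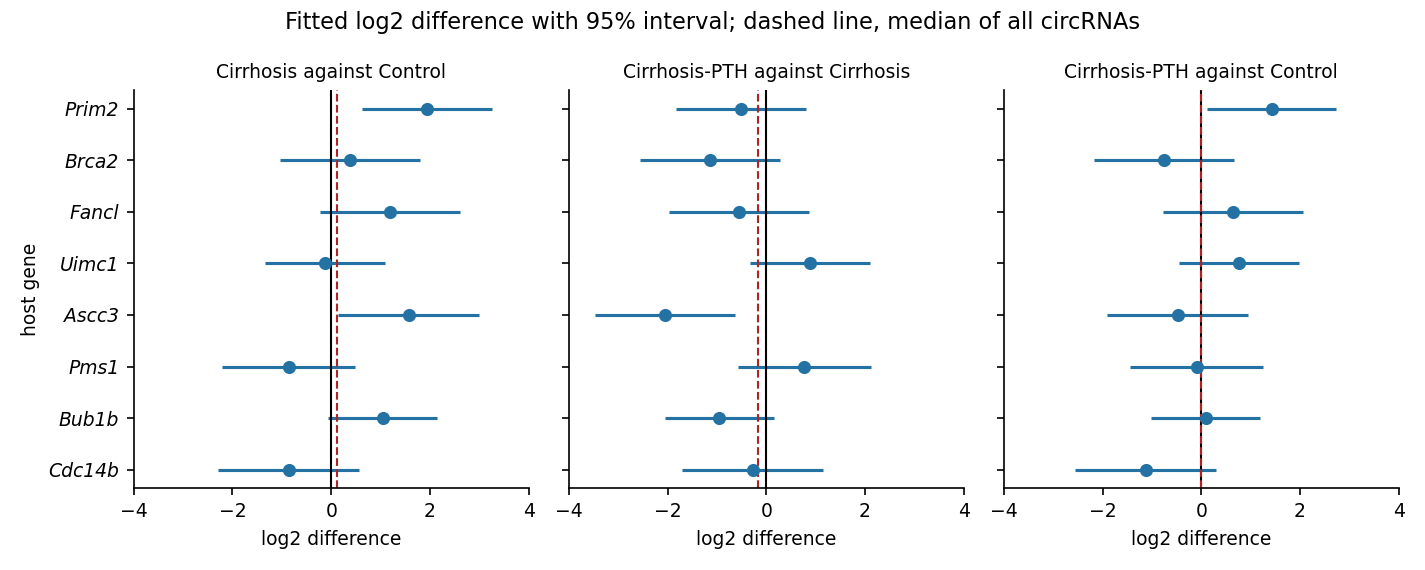
Fitted log2 difference (horizontal axis, on the log2(CPM + 0.143) scale) of each host gene's circRNA in the 3 comparisons, with limma's 95% interval as a bar and the median of all 474 circRNAs as a dashed line. Prim2 at 1.94 and Ascc3 at 1.57 lie farthest right in Cirrhosis against Control, and Ascc3 at -2.05 lies farthest left in Cirrhosis-PTH against Cirrhosis.

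Prim2 encodes the large subunit of primase, which lays down the RNA primers from which DNA polymerases start. Its circRNA had 0 reads in the 6 Control libraries, so each was below its floor of 3 reads, which lay between 0.255 and 1.11 CPM. In Cirrhosis it ran from 0 to 0.922 CPM with a median of 0.527, from 21 reads in 5 of 6 libraries. In Cirrhosis-PTH it ran from 0 to 0.514 CPM with a median of 0.273, from 19 reads in 5 of 6 libraries. The library at 0 was number 4 in both treated groups, and through it both overlapped Control. A circRNA at 0 in all Control libraries enters the table only with reads in 9 of the 12 treated ones, and Prim2 had them in 10. Its entry thus rests on the groups where it was high, and that filter shapes the bounds, the fitted difference and the rank below. At the pooled Cirrhosis level the Control libraries together would have given 20.9 reads, and no single one more than 6.23.

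With the pooled Control libraries set to a floor of 3 reads, the pooled Prim2 level was at least 6.97-fold higher in Cirrhosis and at least 3.43-fold higher in Cirrhosis-PTH. These bounds take the reads of the higher group as exact and cover counting error in Control only. They leave out the spread between mice, which the fitted interval below includes, and so do not bound the difference between the groups of mice. Without Control 8, the deepest Control library, they were 4.89-fold and 2.41-fold. The fitted log2 difference of Prim2 was 1.94 ± 0.67 (SE; 95% interval 0.62 to 3.25) in Cirrhosis against Control, with limma's adjusted p = 0.222, with rank 8 by p among 474. On the recovered reads the difference was 4.89 in edgeR (adjusted p = 0.158) and 3.53 in DESeq2 (adjusted p = 0.223), both above that interval. With Control at 0 the fitted size depends on the pseudocount. It was 2.64 with a pseudocount of 0.0714 CPM and 0.55 with 1 CPM. Median centring made the difference 1.36, and without Cirrhosis 6 it was 1.75 (limma adjusted p = 0.315). Cirrhosis-PTH against Control gave 1.42 ± 0.67 with an adjusted p of 0.815 in limma. Between Cirrhosis-PTH and Cirrhosis the difference was -0.52 ± 0.67, with an interval of -1.83 to 0.80.

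Brca2 encodes a protein that acts in the repair of DNA breaks by homologous recombination. Its circRNA ran from 0 to 1.85 CPM in Control with a median of 0.270, from 0 to 1.93 CPM in Cirrhosis with a median of 0.625, and from 0 to 1.03 CPM in Cirrhosis-PTH with a median of 0.040. Control 1, Cirrhosis 4 and Cirrhosis-PTH 6 were the high libraries, and 7 of the 18 had no read. The group means of Brca2 were 0.546 ± 0.725, 0.703 ± 0.738 and 0.214 ± 0.405 CPM in that order. Without those 3 libraries, each the highest of its group, they were 0.286, 0.457 and 0.051 CPM. The SD was larger than the mean in every group. Cirrhosis against Control differed by 0.37 ± 0.72 on the log2 scale (limma adjusted p = 0.876), and by -0.20 with median centring. The difference was 0.42 with each library scaled to its summed circRNA CPM, 0.69 in edgeR and 0.30 in DESeq2. On the libraries that share a number it was -0.24, so no direction can be given. Cirrhosis-PTH against Cirrhosis differed by -1.13 ± 0.72 (limma adjusted p = 0.646), or by -0.62 with median centring.

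Fancl encodes the ubiquitin ligase of the Fanconi anaemia core complex, which marks the FANCD2 and FANCI proteins at DNA crosslinks. In Control the circRNA ran from 0 to 0.592 CPM with a median of 0.051, and 3 libraries had no read. Cirrhosis ran from 0 to 2.19 CPM with a median of 0.565, and Cirrhosis-PTH from 0 to 1.06 CPM with a median of 0.229. Within Cirrhosis the libraries spread widely, with numbers 1 and 2 at 0 and numbers 5 and 6 at 2.19 and 1.48 CPM. The Fancl means were 0.180 ± 0.251, 0.800 ± 0.871 and 0.429 ± 0.499 CPM. They were 0.097 in Control without Control 2 and 0.521 in Cirrhosis without Cirrhosis 5. The log2 difference of Cirrhosis against Control was 1.18 ± 0.72, with an interval of -0.24 to 2.61 and an adjusted p of 0.532 in limma. With median centring it was 0.61.

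Uimc1 encodes RAP80, a ubiquitin-binding protein that brings the BRCA1-A complex to DNA breaks. Its circRNA was scarce in all groups. It had reads in every library of 1 group, Cirrhosis-PTH, where it ran from 0.159 to 0.526 CPM with a median of 0.246. In Control it ran from 0 to 0.592 CPM with a median of 0.076, and in Cirrhosis from 0 to 0.548 CPM with a median of 0, where 4 of 6 libraries had no read. Control and Cirrhosis had 5 Uimc1 reads each, and Cirrhosis-PTH, the most deeply sequenced group, had 19. All 6 Cirrhosis-PTH libraries lay above the mean of Cirrhosis (0.136 ± 0.229 CPM) and above that of Control (0.152 ± 0.229 CPM), yet below the highest library of each. Those means were 0.054 without Cirrhosis 5 and 0.064 without Control 2. The mean of Cirrhosis-PTH was 0.279 ± 0.127 CPM. Its log2 difference from Cirrhosis was 0.88 ± 0.62 (limma adjusted p = 0.646), and 1.40 with median centring.

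Ascc3 encodes a DNA helicase of the activating signal cointegrator complex, which opens DNA for the repair of alkylated bases and also takes part in freeing stalled ribosomes. Its circRNA ran from 0.102 to 0.888 CPM in Control with a median of 0.377, from 0.530 to 2.03 CPM in Cirrhosis with a median of 1.72, and from 0 to 1.23 CPM in Cirrhosis-PTH with a median of 0.223. In Cirrhosis 5 of 6 libraries were at 1.16 CPM or more, above every Control library, and Cirrhosis 2 alone overlapped Control. Cirrhosis-PTH was split, with 3 libraries at 0 and the libraries numbered 1 and 3 at 1.23 and 1.03 CPM.

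All 6 Cirrhosis libraries lay above the Control mean of Ascc3 and all 6 Cirrhosis-PTH libraries below the Cirrhosis mean. The log2 difference was 1.57 ± 0.73 in Cirrhosis against Control (limma adjusted p = 0.381) and -2.05 ± 0.73 in Cirrhosis-PTH against Cirrhosis (limma adjusted p = 0.386, rank 5 by p among 474). On the recovered reads the adjusted p of these was 0.819 and 0.821 in edgeR. The differences there were 1.51 and -1.25, and in DESeq2 1.40 and -1.43. Median centring made them 0.99 and -1.53. Without Cirrhosis 6 the differences were 1.47 and -1.95 (limma adjusted p = 0.445 and 0.423). Ascc3 means of Cirrhosis-PTH and Control were close, 0.450 and 0.434 CPM, and the former was 0.295 without Cirrhosis-PTH 1. Their fitted difference was -0.48 ± 0.73, with an interval of -1.90 to 0.94, and its sign was opposite to that of the means.

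Pms1 encodes a protein of the DNA mismatch repair family. It gave the most abundant circRNA of the 8 and the only one with reads in all 18 libraries, 142 in total. In Control it ran from 0.607 to 1.61 CPM with a median of 1.33, in Cirrhosis from 0.183 to 0.954 CPM with a median of 0.600, and in Cirrhosis-PTH from 0.522 to 1.59 CPM with a median of 1.04. Control values lay in separate places, 4 libraries at 1.18 CPM or more and numbers 3 and 7 at 0.607 and 0.612, within the Cirrhosis range. All 6 Cirrhosis libraries lay below the Control mean, and 5 of 6 Cirrhosis-PTH libraries lay above the Cirrhosis mean.

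The Pms1 mean in Cirrhosis was 2.01-fold lower than in Control, with a fitted log2 difference of -0.86 ± 0.69 (95% interval -2.21 to 0.49; limma adjusted p = 0.671). Median centring made it -1.44. In Cirrhosis-PTH the mean was 1.85-fold higher than in Cirrhosis, and the log2 difference 0.77 ± 0.69 (limma adjusted p = 0.698). Between Cirrhosis-PTH and Control the difference was -0.09 ± 0.69, with an interval of -1.44 to 1.26. No Pms1 mean changed more than 1.5 times when its highest library was left out.

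**Figure D4:**
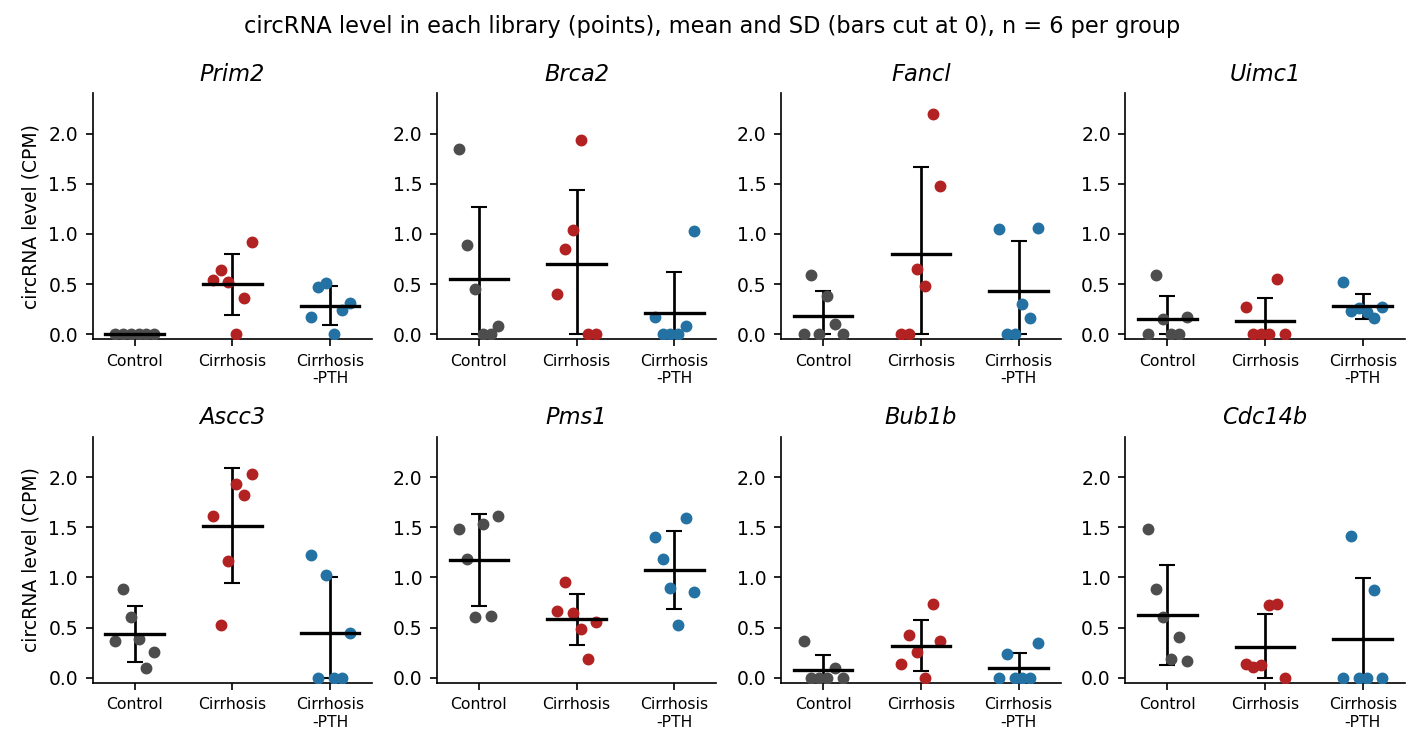
CPM of the circRNA of each host gene (vertical axis) in Control, Cirrhosis and Cirrhosis-PTH, with 1 point per library, the mean as a line and the SD as bars cut at 0 (n = 6 per group). Ascc3 has 5 of 6 Cirrhosis points above all Control points, Pms1 has all Cirrhosis points below the Control mean, and Prim2 has all Control points at 0.

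Bub1b encodes BubR1, a kinase-like protein of the spindle checkpoint that delays the parting of chromosomes until all are attached. Its circRNA was the scarcest of the 8, with 26 reads in 9 libraries. It ran from 0 to 0.369 CPM in Control and from 0 to 0.343 CPM in Cirrhosis-PTH, both with a median of 0, and from 0 to 0.731 CPM in Cirrhosis with a median of 0.314. Reads were present in 5 of 6 Cirrhosis libraries and in 2 of 6 of each other group. As 9 libraries is the fewest for any listed circRNA, its entry rests on the group where it was high. That filter shapes the detection counts and the differences given here. The Bub1b means were 0.079 ± 0.148, 0.319 ± 0.254 and 0.097 ± 0.153 CPM in Control, Cirrhosis and Cirrhosis-PTH, and they were 0.020 without Control 1 and 0.047 without Cirrhosis-PTH 6. The log2 difference of Cirrhosis against Control was 1.04 ± 0.56 (limma adjusted p = 0.444) and that of Cirrhosis-PTH against Cirrhosis -0.95 ± 0.56 (limma adjusted p = 0.639). Median centring made these 0.47 and -0.44. Control had 2 reads in all, too few for a fold.

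Cdc14b encodes a phosphatase linked to the exit from mitosis and to the checkpoint that holds cells with damaged DNA before it. In Control its circRNA was found in 6 of 6 libraries, from 0.170 to 1.48 CPM with a median of 0.507. In Cirrhosis it ran from 0 to 0.731 CPM with a median of 0.132, and in Cirrhosis-PTH from 0 to 1.42 CPM with a median of 0. The Cirrhosis-PTH reads came from libraries 2 (6 reads) and 5 (11 reads), and the deepest library, number 6, had none. Cdc14b means were 0.624 ± 0.498, 0.304 ± 0.332 and 0.382 ± 0.616 CPM, the last 0.175 without Cirrhosis-PTH 2. The log2 difference of Cirrhosis against Control was -0.86 ± 0.73 (limma adjusted p = 0.708), and -1.44 with median centring. For Cirrhosis-PTH against Cirrhosis it was -0.27 ± 0.73 in limma and 0.24 with median centring, so no direction can be given.

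Apart from the members, 6 of 429 genes of these processes (1.4%) hosted a listed circRNA, where 426 of the 429 symbols matched the annotation. Of all 21951 annotated protein-coding genes 405 did (1.85%). The member hosts were left out of the 429 but are among the 405. The shares therefore do not tell whether genes of these processes host circRNAs more or less often than others. Of 74 further DNA replication genes 0 hosted a listed circRNA, of 153 DNA repair and damage response genes 1 did (Rad52), of 155 genes of mitosis and chromosome segregation 2 (Esco1 and Ckap5), and of 47 cell cycle entry genes 3 (E2f5, Lin54 and Tfdp2). None of these 6 passed limma's adjusted 0.05 in any comparison, and 0% of the 474 did. In Cirrhosis against Control 4 stood higher and 2 lower, with adjusted p values of 0.561 to 0.938 in limma. Their median log2 difference was 0.61, beside 56.1% higher and a median of 0.12 over all 474. With median centring 3 of the 6 stood higher, beside 28.9% of all. In Cirrhosis-PTH against Cirrhosis 3 stood higher and 3 lower, with a median of -0.03, beside 42.0% higher and -0.17 over all 474. With median centring 6 stood higher there, beside 63.9% of all. In Cirrhosis-PTH against Control 4 stood higher, with a median of 0.63, beside 49.8% higher and -0.01 over all 474.

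Among them, Esco1, which acetylates cohesin, had the most abundant circRNA. Its Control mean was 1.17 ± 1.33 CPM, its Cirrhosis mean 2.07 ± 2.0 and its Cirrhosis-PTH mean 1.51 ± 1.17. The library Cirrhosis 6 stood at 6.09 CPM, and without it the Cirrhosis mean was 1.27, while the Control mean without Control 2 was 0.699. Rad52, a recombination gene, stood at 0.915 ± 1.13, 0.464 ± 0.536 and 0.486 ± 0.479 CPM in that order, with 0.506 in Control without Control 2 and 0.264 in Cirrhosis without Cirrhosis 5. Ckap5, whose product speeds microtubule growth, stood at 0.113 ± 0.178, 0.498 ± 0.665 and 0.249 ± 0.212 CPM, with 0.059 in Control without Control 6 and 0.305 in Cirrhosis without Cirrhosis 5. Both had values of 0 in every group, and the groups overlapped. Lin54, of the DREAM repressor complex of cell cycle genes, stood at 0.096 ± 0.123, 0.539 ± 0.745 and 0.603 ± 0.554 CPM, with 0.054 in Control without Control 3 and 0.241 in Cirrhosis without Cirrhosis 6. The E2F family gene E2f5 stood at 0.279 ± 0.242, 0.684 ± 0.955 and 0.284 ± 0.270 CPM, with 0.338 in Cirrhosis without Cirrhosis 4. Tfdp2, whose product pairs with E2F proteins, stood at 0.339 ± 0.408, 0.228 ± 0.255 and 0.468 ± 0.331 CPM, with 0.225 in Control without Control 3.

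Bulk liver RNA does not tell fewer or more cells of a type from less or more RNA per cell. Of 18 macrophage and Kupffer cell marker genes, 2 hosted listed circRNAs, Adgre1 with 2 and Mertk with 1. Their summed level ran from 0 to 1.02 CPM in Control, 0.184 to 6.76 in Cirrhosis and 0.149 to 1.19 in Cirrhosis-PTH, with medians of 0.558, 2.56 and 0.910 CPM, highest in Cirrhosis like those of Ascc3. In Cirrhosis 6, where the Ascc3 and Prim2 circRNAs were at their highest (2.03 and 0.922 CPM), the summed macrophage level was the lowest of its group, 0.184 CPM. That sum was 1 Adgre1 read, in the library with the fewest detected circRNAs (223). In Cirrhosis 5, where the Fancl and Bub1b circRNAs were at their highest (2.19 and 0.731 CPM), the summed macrophage level was the highest, 6.76 CPM. The part of this level in the member values was not tested. Of 15 lymphocyte markers 1 was listed (Ikzf1), at 0.085 to 0.959, 0 to 2.19 and 0 to 0.708 CPM in the same order. Of 14 hepatocyte markers 2 were (Egfr and G6pc), with sums of 0 to 4.22, 0.369 to 2.66 and 0.257 to 3.07 CPM, and the albumin gene hosted none. The medians of these sums were 1.36, 1.10 and 1.73 CPM. Egfr means were 1.52 ± 1.65, 1.23 ± 0.82 and 1.34 ± 0.87 CPM. Those of G6pc were 0.37 ± 0.46, 0.06 ± 0.10 and 0.35 ± 0.43, or 0.218, 0.026 and 0.183 without the highest library of each group. Markers of stellate cells, endothelial cells, cholangiocytes and erythroid cells hosted 0 listed circRNAs, so these data give no level for them.

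The members did not form 1 pattern across the 18 libraries. Over the 28 pairs, Pearson's r of log2(CPM + 0.143) ran from -0.42 (Pms1 with Ascc3) to 0.57 (Bub1b with Prim2), with a median of 0.05. These values come from the same libraries with unequal depth and many zeros and are a description only. The circRNAs whose pattern was most like that of Pms1 over the 18 libraries came from Arhgap32 (r = 0.60), Hnrnpu (r = 0.59) and Ssh2 (r = 0.57), ranked by r among all circRNAs of other hosts. Together the 8 members took 1.20 ± 0.405% of the back-splice reads of a Control library, 1.52 ± 0.239% of a Cirrhosis library and 1.28 ± 0.191% of a Cirrhosis-PTH library (mean ± SD, n = 6 each). The ranges of these shares overlapped in all 3 groups, at 0.774 to 1.89%, 1.28 to 1.90% and 1.05 to 1.49%.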

How the data were processed

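The authors deposited 1 table of circRNA levels in CPM, with junctions called by CIRI, per the file headers. Its version and the CPM denominator are not given in the sources used here. The tools named are Trim Galore, cutadapt 4.2, Bowtie 1.3.1, Bowtie2, StringTie 2.1.5 and HISAT2 2.2.1, with the build GRCm38, per the submitters' processing notes. Total RNA was extracted with TRIzol, depleted of ribosomal RNA and made into libraries with a NEBNext RNA kit, per the labels' protocols. All 5886 values above 0 (100%) were whole multiples of 1 read within 0.01, which gave the reads. Group and replicate number were read from the sample titles, and 0 columns of other samples were present. Members and gene lists were chosen with earlier results of these data known.

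Circles were placed on GENCODE M21, whose host strand was used because the table gives none. Differences are from limma 3.58.1 with trend in R 4.3.3 on log2(CPM + 0.143). For low circRNAs with zeros these can be smaller or larger than in edgeR. Prim2 was at 1.94 against 4.89 in Cirrhosis against Control, and Ascc3 at -2.05 against -1.25 in Cirrhosis-PTH against Cirrhosis. The limma fit used all 18 libraries, with 2-sided tests adjusted by Benjamini-Hochberg over 474 circRNAs. The pseudocount is the libraries' median smallest value above 0. Each library is 1 mouse. No 2 replicates agreed within counting noise (chi-square per degree of freedom 2.11 to 5.85 over 45 pairs), and none was merged. Alternatives were edgeR 4.0.16 and DESeq2 1.42.0 on the recovered reads, exact permutation over 924 splits (smallest p 0.00216), 3 other pseudocounts, filters, 2 other scalings, 2-group fits, a replicate block and leaving out each library. In reads simulated with known folds in Cirrhosis, the limma fit called 78% of circRNAs raised 4-fold and 100% of those raised 8-fold. It called 24% of those lowered to 0.25 of their level, 50% of those lowered to 0.125 and 1.1% of unchanged ones. Lowered circRNAs were thus missed more often. The simulated spread was set in advance and may differ from that of these libraries. Python 3.11.15, pandas 2.3.3 and matplotlib 3.10.9 were also used. All circRNAs of the 8 hosts were named, with up to 6 of each gene list and the 3 most correlated with the most abundant member.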

Additional observations from a re-analysis of the deposited data

Results flagged for a closer look

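Among the 23 member groups with a value above 0, 4 had a highest library that stood apart from the other 5 by more of the group's range than Dixon's 95% critical value allows. For normally distributed values chance flags about 1 in 20 such groups. These are counts with many zeros and steps of 1 read, for which that rate was not tested. The Brca2 circRNA stood at 1.03 CPM in Cirrhosis-PTH 6, the deepest library, with a gap of 0.83 of the range, and at 0.175 CPM or less in the other 5. That of Bub1b stood at 0.369 CPM in Control 1, which is a single read in the shallowest library (gap 0.724). That of Uimc1 stood at 0.592 CPM in Control 2, from 2 reads (gap 0.713), and at 0.526 CPM in Cirrhosis-PTH 1, from 3 reads (gap 0.685).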

How the results depend on the processing

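Over 24 member differences and 582 values from other settings, 564 kept the direction and the side of the threshold, 18 changed sign and 0 came to pass an adjusted 0.05. Of the 24, 18 never changed sign. Some of these settings could not change a direction, so the count of kept values overstates how far it was tried. The filter of 6 or more libraries removed none of the 474 circRNAs. The 2-group fits and exact permutation return the log2 difference of the main fit. In Cirrhosis-PTH against Cirrhosis all libraries share their numbers, so the fits on shared numbers, with or without the block, return it too. The Brca2 difference of Cirrhosis against Control was -0.20 with median centring, -0.24 with the replicate block and -0.24 on the shared numbers without it, and -0.0112 to 0.82 with single libraries left out. Cdc14b in Cirrhosis-PTH against Cirrhosis was 0.0164 with a pseudocount of 1 CPM, 0.24 with median centring, 0.59 in edgeR and 0.40 in DESeq2, and Ascc3 in Cirrhosis-PTH against Control was 0.26 in edgeR. With single libraries left out, Uimc1 in Cirrhosis against Control ran from -0.45 to 0.20, Bub1b in Cirrhosis-PTH against Control from -0.16 to 0.37 and Pms1 there from -0.24 to 0.0695. The cause was not tested.

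Among all circRNAs, the 0 calls of Cirrhosis against Control became 2 with a mean CPM of 0.5 or more, 2 with median centring, 1 in DESeq2 (edgeR 0) and 0 to 1 with single libraries left out (1 without Control 3). Those of Cirrhosis-PTH against Cirrhosis became 1 in edgeR, 1 in DESeq2 and 0 to 1 with single libraries left out (1 without Cirrhosis 1, 2 or 3). Cirrhosis-PTH against Control stayed at 0 in all settings run. None of these calls was a member. Under an unadjusted 0.05 the split of higher and lower circRNAs differed by tool: 42 and 16 in limma, 16 and 14 in edgeR and 16 and 22 in DESeq2 in the first comparison, 8 and 26, 17 and 8, and 16 and 21 in the second, and 7 and 18, 9 and 10, and 3 and 25 in the third. The filter on mean CPM left 2 members, Pms1 and Ascc3, in the test.

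Between libraries of the same title number, correlations of deviations were 0.01 to 0.08, -0.06 to 0.03 and -0.06 to 0.02 in the 3 comparisons. The replicate block called 0 circRNAs in each. Libraries of unlike numbers were not compared, and read counts were low. These correlations therefore cannot tell whether equal numbers pair the libraries. On the libraries that share a number, with or without the block, Cirrhosis against Control gave 0.43 for Fancl and -1.82 for Cdc14b. At a median of 2 reads, the SE of a member difference was 0.56 to 0.73 on the log2 scale.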
